A study of Mus musculus with 4 samples.

Results

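Mitochondrial protein import and chaperone genes were compared between tibialis anterior (TA) muscle of old and young mice. They were taken as the genes with a symbol that begins with Tomm or Timm, together with Samm50, Hspd1, Hspe1, Hspa9, Grpel1, Dnajc19, Chchd4, Pam16, Trap1, Pmpca and Pmpcb. The rule found 28 of the 20340 gene labels that had a value in every sample, and 26 of them reached at least 1 FPKM in at least 2 samples and were tested. FPKM counts sequenced fragments per length of transcript and per number of mapped fragments, so levels of different genes can be set side by side.

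The samples were mRNA-seq of muscle from C57BL/6 mice, wild type in both groups, at an age of 20 months (Old 1 and Old 2) or 3 months (Young 1 and Young 2), with no treatment named. The design text speaks of 3 samples per age, and 2 per age were analysed here. The study describes its mRNA-seq experiments and its mice as independent, but no source used here ties these samples to single mice, so p-values measure only the spread between these samples, which may be technical. FPKM values hold no counts, and the depth of each sample is unknown. The values ended on chromosome 7 or at the start of chromosome 8 in text order, and genes further on, among them Tomm20 and Timm44, were not analysed here.

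Most mitochondrial proteins are encoded in the nucleus, made in the cytosol and threaded through the membranes of the organelle. The TOM complex is the entry gate of the outer membrane. The SAM complex inserts barrel proteins there, small TIM chaperones carry hydrophobic proteins across the space between the membranes, and TIM22 and TIM23 pass proteins into or through the inner membrane. A motor built on the chaperone mortalin (Hspa9) pulls proteins into the matrix, where a peptidase cuts off their targeting sequence and chaperonins fold them. Muscle fibers hold many mitochondria, and they need this route for nearly all respiratory chain subunits.

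The scale of the samples stood out before any comparison of ages. Over the 25 members above 0 in all 4 samples, FPKM in Old 1 was 1.91 to 3.18 times that in Old 2 (median 2.02), and in Young 2 it was 1.88 to 3.35 times that in Young 1 (median 1.98). The samples of one age therefore differed more than the ages did, and each sample was divided by 1 factor so that medians over genes matched before the ages were tested. Old 1 had a scale like that of Young 2, and Old 2 like that of Young 1. The ratio of old to young within these like-scaled pairs, which were chosen after the values were seen, is given beside the test. The pairs gave nearly the same ratio: the log2 ratios of a member differed between pairs by a median of 0.0207 and at most 0.138, and by less than 0.05 for 21 of 25 members.

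**Figure D1:**
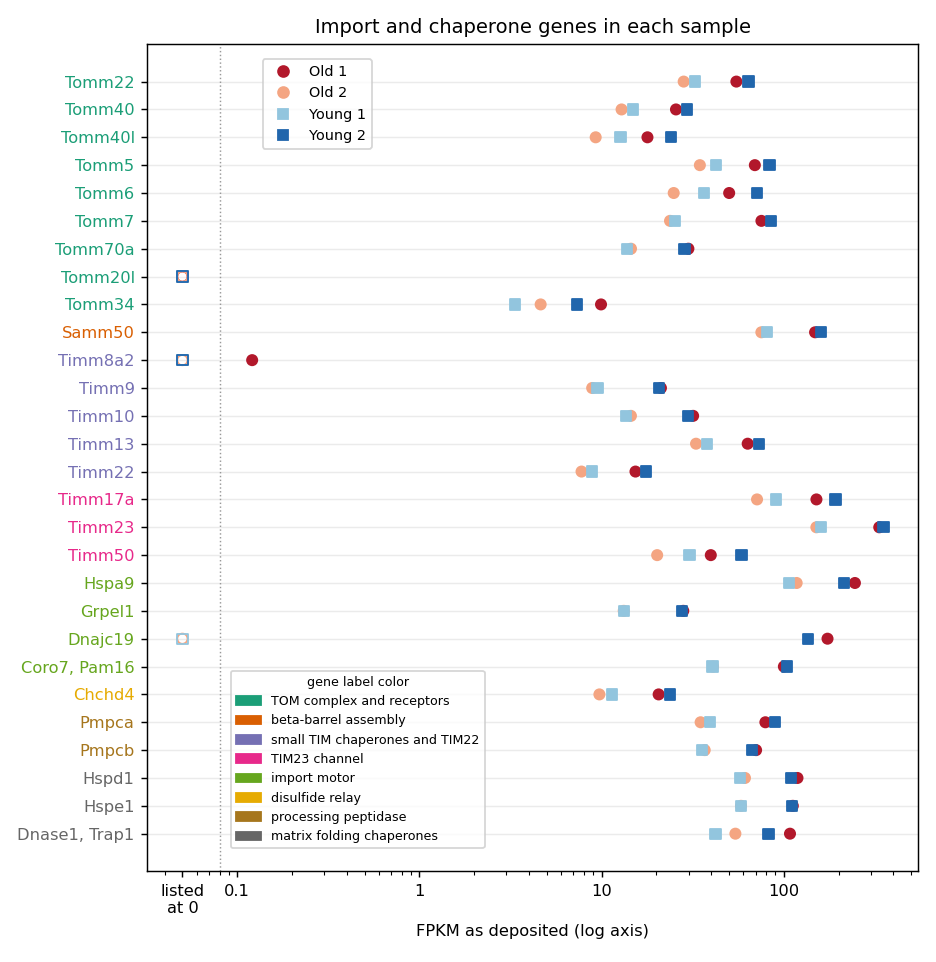
FPKM as deposited (log axis) of the 28 members in Old 1, Old 2, Young 1 and Young 2, with gene labels colored by role and open symbols at the left for values listed at 0. For the members above 0 in all samples, Old 1 and Young 2 lie to the right of Old 2 and Young 1, and Timm23 and Hspa9 are at the upper end.

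No member passed the test (limma on log2 of scaled FPKM + 1, Benjamini-Hochberg adjusted p under 0.05). Of the 10266 genes tested, 75 were lower in Old (0.731%) and 61 higher (0.594%). At an unadjusted limma p under 0.05, 2 members were lower (Tomm6 and Timm50) and 1 was higher (Tomm34), against 1328 lower and 1183 higher among all genes. The median log2 fold change was -0.07 over the 26 members tested and 0.00 over all genes.

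The call depended on how the samples were brought to 1 scale and paired. With cyclic loess normalization, which allows the factor between samples to vary with the level of a gene, 8 members were lower and 3 higher at an adjusted limma p under 0.05. The lower ones were Tomm5, Tomm6, Tomm22, Tomm40, Tomm40l, Timm17a, Timm50 and Chchd4, and the higher ones Tomm34, Hspa9 and the locus of Dnase1 and Trap1. Over all genes, the same normalization called 13.6% lower and 11.1% higher. The share of members called lower was thus above that of all genes, and the share called higher was close to it, with no test of either difference. With the like-scaled pairs as a block, 7 members were higher and 12 lower at an adjusted limma p under 0.05, against 32.3% of all genes higher and 33.3% lower. The higher ones were Tomm34, Tomm70a, Timm10, Hspa9, Pmpcb, Hspd1 and the Dnase1 and Trap1 locus. The lower ones were the 8 called lower after cyclic loess normalization, together with Samm50, Timm13, Timm22 and Pmpca. This block was chosen after the values were seen. If the samples of an age were not separate mice, none of these p-values holds a check on biological replicates.

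In the like-scaled pairs, 14 of 25 members were lower in Old in both pairs, 8 were higher in both, and 3 differed in sign. Of the 9293 tested genes above 0 in all samples, 48.6% were lower and 45.5% higher in both pairs. The median log2 ratio of the members was -0.11 for Old 1 over Young 2 and -0.10 for Old 2 over Young 1, against -0.01 and -0.02 over all genes. A difference of at least 1.25-fold in both pairs was met by 4 members that were lower (Timm17a, Timm50, Tomm40l and Tomm6) and 2 that were higher (Tomm34 and the Dnase1 and Trap1 locus). That rule was met by 22.2% of all genes in the lower direction and by 18.9% in the higher direction, so the members did not exceed the background in differences of this size.

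**Figure D2:**
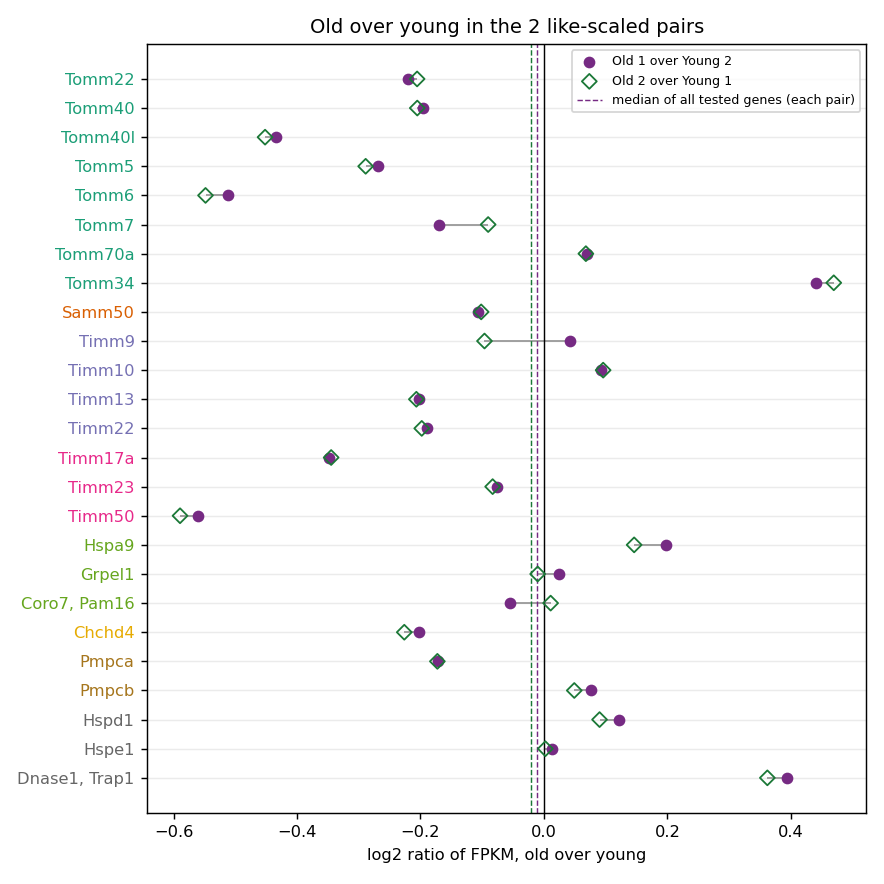
log2 ratio of FPKM, old over young, for the 25 members above 0 in all samples (filled circles, Old 1 over Young 2; open diamonds, Old 2 over Young 1), with the median of all tested genes in each pair as dashed lines and gene labels colored by role as in the plot of levels. Tomm6 and Timm50 lie farthest to the left and Tomm34 farthest to the right, with both pairs close together.

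The outer membrane gate was represented by 9 Tomm genes, of which 8 were tested. 6 of them were lower in Old in both pairs (48.6% of all genes), and Tomm70a and Tomm34 were higher in both (45.5%). After cyclic loess normalization, 5 were called lower and 1 higher, against 13.6% and 11.1% of all genes. Tomm6 encodes a small subunit of the TOM complex and differed most among them. Its FPKM was 50.1 in Old 1 and 24.9 in Old 2, against 36.4 in Young 1 and 71.5 in Young 2. Put on 1 scale, the values were 33.0 and 38.0 in Old and 54.3 and 46.7 in Young. The log2 fold change of Tomm6 was -0.50 ± 0.15 (SE, n = 2 per age; adjusted p = 0.172 by limma) and -0.49 ± 0.03 after cyclic loess normalization (adjusted p = 0.00798 by limma). The Tomm6 locus also spans Tomm6os, an antisense gene, and parts of other genes. The submitters' labels do not say that the kit marked strand, while the study's methods name a stranded kit, and the strand setting of the counting is not given in the sources used here.

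Tomm40 forms the pore and Tomm22 is the central receptor that holds the complex together. Tomm22 was at 54.9 and 28.2 FPKM in Old and at 32.5 and 64.0 in Young, in the order of the sample numbers. Tomm40 was at 25.6 and 12.9 in Old and at 14.8 and 29.3 in Young. Both had the same small shift, with log2 ratios of -0.22 and -0.21 for Tomm22 and of -0.20 and -0.21 for Tomm40 in the pair of Old 1 and the pair of Old 2. The Tomm40 locus also covers Apoe, so its value may include reads of that gene. In the scaled test their adjusted limma p was 0.580 and 0.564, and after cyclic loess normalization 0.0357 and 0.0445. The ratio of Tomm40 to Tomm22 within a sample does not depend on a factor common to all genes of the sample. It was 0.466 and 0.456 in Old and 0.456 and 0.458 in Young, so the ages overlapped in this ratio.

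For Tomm6, in contrast, the ages did not overlap in the ratio to its partner. The ratio of Tomm6 to Tomm22 was 0.913 in Old 1 and 0.882 in Old 2, and 1.12 in both young samples. With 2 samples per age an exact two-sided permutation test cannot go below p = 0.333, which is the value found for this ratio. Tomm5, another small subunit, was at 69.3 and 34.6 FPKM in Old and at 42.3 and 83.5 in Young, with log2 ratios of -0.27 and -0.29 (adjusted p = 0.412 by limma, and 0.0153 after cyclic loess normalization). Its ratio to Tomm22 was 1.26 and 1.23 in Old and 1.30 and 1.31 in Young, a smaller gap than that of Tomm6. These partner ratios were picked after the values were seen.

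Tomm40l, a relative of Tomm40, was at 17.8 and 9.28 FPKM in Old and at 12.7 and 24.1 in Young. Scaled, it was at 11.8 and 14.2 in Old and at 18.9 and 15.8 in Young. This gave Tomm40l a log2 fold change of -0.39 ± 0.16 (SE, n = 2 per age; adjusted p = 0.243 by limma) and -0.40 ± 0.06 after cyclic loess normalization (adjusted p = 0.0265). Its locus also covers Nr1i3 and Apoa2. Tomm7, a further small subunit, was at 75.4 and 23.7 FPKM in Old and at 25.3 and 84.8 in Young. It had the widest gap between samples of an age among the members above 0, and its log2 ratios of -0.17 and -0.09 were far smaller than that gap. The Tomm7 locus was drawn over 375608 bases with 5 other RefSeq genes in it, so its value is not that of Tomm7 alone. Tomm20l, a relative of the receptor Tomm20, was listed at 0 in all 4 samples.

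Tomm70a, the receptor for carrier proteins, was at 29.9 and 14.5 FPKM in Old and at 13.8 and 28.5 in Young, with log2 ratios of 0.07 in both pairs. Its locus also overlaps Nit2. Tomm34, a cytosolic co-chaperone of proteins on their way to the outer membrane, was the lowest of the tested Tomm genes and the one with the largest value in favor of Old. Tomm34 was at 9.92 and 4.63 FPKM in Old, against 3.34 and 7.31 in Young. Scaled, Tomm34 was at 6.54 and 7.07 in Old and at 4.99 and 4.78 in Young. Its log2 fold change was 0.41 ± 0.08 (SE, n = 2 per age; adjusted p = 0.0958 by limma) and 0.38 ± 0.05 after cyclic loess normalization (adjusted p = 0.0230). It was the member nearest to the threshold, and it was past it over genes with at least 1 FPKM in all 4 samples (adjusted p = 0.0463 by limma).

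Promoters of some members are shown, for Tomm6, Tomm34, Timm50 and Trap1 because they were among the members with the largest differences and for Hspd1 and Hspe1 because they share theirs. They are given as the 250 bases before the transcript start in RefSeq, or the bases between both starts for Hspd1 and Hspe1 (GRCm38.p6, the assembly of mm10), from 5′ to 3′ on the strand of the gene. Where a gene had several starts, that nearest to the edge of its deposited locus was taken. The RefSeq spans of Tomm34, Trap1 and Hspd1 reach into the stretches shown. Promoter windows were matched for 25 of 28 members. Capitals mark exact matches, on either strand, to letters bound by known regulators of nuclear genes for mitochondria or of chaperones: CCGGAAG (ETS type, the letters of GABPA), TCAAGGTCA (ERR), TGCGCATGC (NRF1), TTCNNGAA and GAANNTTC (parts of a heat shock element), TGACGTCA (CRE), AAGATGGCG (YY1) and GGGCGG (Sp1 type). The Tomm6 window (chr17:47688387-47688636, minus strand) holds none of them, and the Tomm34 window (chr2:164071103-164071352, minus strand) holds 2 ETS type and 4 Sp1 type matches.
Tomm6: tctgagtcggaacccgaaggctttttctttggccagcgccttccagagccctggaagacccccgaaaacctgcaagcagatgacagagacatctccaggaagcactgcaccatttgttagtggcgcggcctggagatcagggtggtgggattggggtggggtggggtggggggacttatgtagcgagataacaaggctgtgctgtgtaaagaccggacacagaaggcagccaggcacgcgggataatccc
Tomm34: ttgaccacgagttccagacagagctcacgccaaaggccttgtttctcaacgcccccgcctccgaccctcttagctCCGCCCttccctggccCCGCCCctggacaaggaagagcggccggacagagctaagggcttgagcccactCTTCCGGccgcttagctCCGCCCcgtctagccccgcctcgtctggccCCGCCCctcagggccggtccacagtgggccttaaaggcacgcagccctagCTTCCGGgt

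Samm50, the channel that inserts barrel proteins such as Tomm40 into the outer membrane, was at 148 and 75.3 FPKM in Old and at 80.8 and 160 in Young. Its scaled values of 97.9 and 115 in Old and 121 and 105 in Young overlapped. The log2 ratios of Samm50 were -0.11 and -0.10, and the adjusted limma p was 0.875, and 0.268 after cyclic loess normalization. Its locus also overlaps Gm52212.

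In the space between the membranes, Timm9 and Timm10 form the ring-shaped chaperone that shields hydrophobic segments, and Timm13 belongs to the second such ring. Timm9 was at 21.2 and 8.87 FPKM in Old and at 9.49 and 20.6 in Young, with log2 ratios of 0.04 and -0.10 that differed in sign. Timm10 was at 31.8 and 14.5 in Old and at 13.6 and 29.8 in Young, and its log2 ratios were 0.09 and 0.10. Timm13 was at 63.3 and 33.0 in Old and at 38.1 and 72.9 in Young, and it was lower in both pairs (log2 -0.20 and -0.21). The partners of the first ring thus stayed within 0.10 of 0 on the log2 scale while Timm13 lay lower. None of the 3 passed the scaled test or that after cyclic loess normalization (adjusted p = 0.0626 for Timm13 by limma). With the like-scaled pairs as a block, Timm10 and Timm13 passed limma (adjusted p = 0.0189 and adjusted p = 0.00792). That block, chosen after the values were seen, called 32.3% of all genes higher and 33.3% lower. The ratio of Timm9 to Timm10 was 0.666 and 0.613 in Old and 0.700 and 0.690 in Young. Timm9 shares its locus with Tomm20l, and the Timm13 locus also overlaps Tmprss9.

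Timm22, the channel for carrier proteins, was at 15.3 and 7.76 FPKM in Old and at 8.90 and 17.5 in Young, with log2 ratios of -0.19 and -0.20 (adjusted p = 0.102 by limma after cyclic loess normalization). Timm8a2 was listed at 0 in 3 samples and at 0.121 FPKM in Old 1, and it was not tested. Chchd4, the oxidoreductase that traps small TIM proteins by forming their disulfide bonds, was at 20.6 and 9.72 FPKM in Old and at 11.4 and 23.6 in Young. Its log2 ratios were -0.20 and -0.23, and its adjusted limma p was 0.407, and 0.0490 after cyclic loess normalization, just inside the threshold.

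The TIM23 translocase is the route of proteins with a cleavable targeting sequence. Its 3 measured genes were all lower in Old in both pairs, as were 48.6% of all genes, but by unequal amounts. Timm23, the central channel subunit, had the highest FPKM of all members and the smallest shift of the 3 TIM23 genes. It was at 334 and 151 in Old and at 160 and 352 in Young, with a log2 ratio of -0.08 in both pairs. Its locus also covers Ncoa4. Timm23 had an adjusted limma p of 0.873, and 0.962 after cyclic loess normalization. Timm17a, which lines the channel with Timm23, was at 151 and 71.3 in Old and at 90.5 and 192 in Young. Scaled, Timm17a was at 99.6 and 109 in Old and at 135 and 126 in Young. Its log2 fold change was -0.32 ± 0.13 (SE, n = 2 per age; adjusted p = 0.239 by limma), and -0.31 ± 0.04 after cyclic loess normalization (adjusted p = 0.0259).

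Timm50, the receptor that hands proteins from TOM to the TIM23 channel, had the lowest log2 ratio of all members. It was at 39.7 and 20.2 FPKM in Old and at 30.4 and 58.6 in Young. On 1 scale these were 26.2 and 30.8 in Old and 45.3 and 38.4 in Young. The Old to Young ratio of Timm50 was 0.678 in the pair of Old 1 and 0.665 in the pair of Old 2. Its locus also overlaps Gm51445. The log2 fold change was -0.54 ± 0.16 (SE, n = 2 per age; adjusted p = 0.168 by limma), and -0.53 ± 0.03 after cyclic loess normalization (adjusted p = 0.00864). The Timm50 promoter (chr7:28312047-28312296, minus strand) holds 3 Sp1 type matches in the bases before the start.
Timm50: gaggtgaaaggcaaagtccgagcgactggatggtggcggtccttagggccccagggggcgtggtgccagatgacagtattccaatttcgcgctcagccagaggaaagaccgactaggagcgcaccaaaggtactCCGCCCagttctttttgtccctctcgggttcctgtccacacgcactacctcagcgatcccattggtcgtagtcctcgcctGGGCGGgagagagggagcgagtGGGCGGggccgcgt

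Ratios within a sample need no scaling. They restate the same FPKM values, for partners picked after the values were seen, and are no separate test of the unequal shift. The Timm23 value may include reads of Ncoa4. Timm50 stood at 0.119 and 0.134 of Timm23 in Old and at 0.190 and 0.167 in Young, and Timm17a at 0.452 and 0.472 of Timm23 in Old and at 0.566 and 0.546 in Young. The ages did not overlap in either ratio (exact two-sided permutation p = 0.333 for each, the smallest that 2 against 2 allows).

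**Figure D3:**
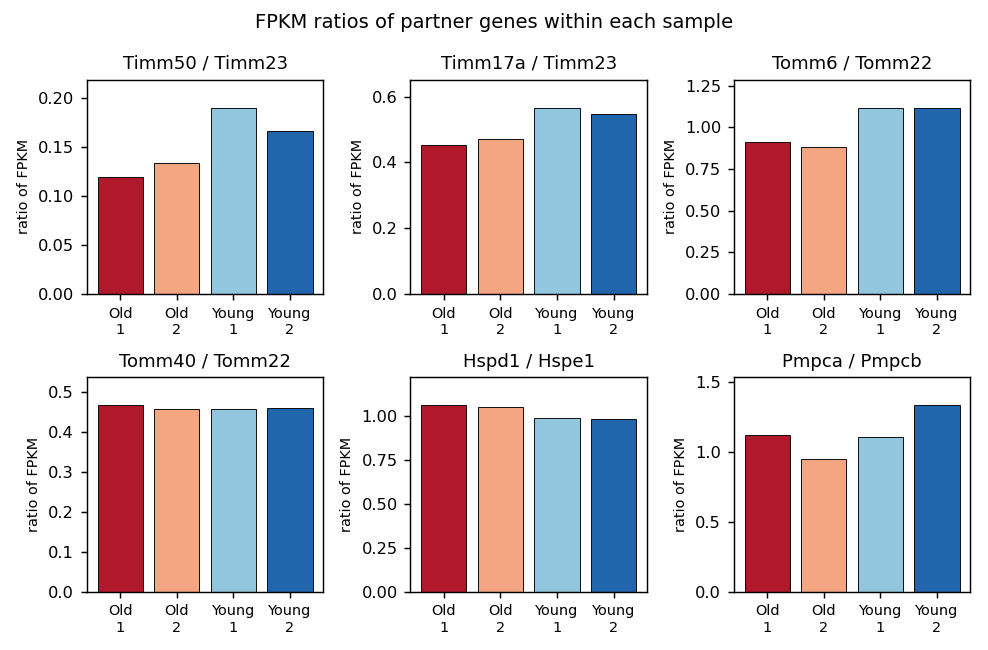
Ratio of FPKM of partner genes within each sample (bars, 1 per sample, axes from 0) for Timm50 and Timm17a over Timm23, Tomm6 and Tomm40 over Tomm22, Hspd1 over Hspe1 and Pmpca over Pmpcb. Timm50 over Timm23 is 0.119 and 0.134 in the old samples against 0.190 and 0.167 in the young ones, while Tomm40 over Tomm22 lies between 0.456 and 0.466 in all samples.

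Of the 3 motor genes above 0 in all samples, 1 was higher in Old in both pairs and none was lower in both. Over all genes these shares were 45.5% and 48.6%. Hspa9, which encodes the motor chaperone mortalin, was at 246 and 118 FPKM in Old and at 106 and 214 in Young. Scaled, Hspa9 was at 162 and 180 in Old and at 159 and 140 in Young. For Hspa9 the log2 fold change was 0.19 ± 0.14 (SE, n = 2 per age; adjusted p = 0.498 by limma), and 0.22 ± 0.03 after cyclic loess normalization (adjusted p = 0.0259). Grpel1, its nucleotide exchange factor, was at 28.1 and 13.2 FPKM in Old and at 13.3 and 27.6 in Young, with log2 ratios of 0.02 and -0.01. The Grpel1 locus also overlaps Tada2b.

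The J-proteins of the motor could be read less well. Dnajc19 was at 174 FPKM in Old 1 and 136 in Young 2 but was listed at 0 in Old 2 and Young 1, so its fitted fold change (0.18 ± 3.51, SE, limma) is not informative. The Dnajc19 locus also overlaps Fxr1, so its value may include reads of that gene. The cause of the values listed at 0 was not tested. Pam16, which holds back the J-protein, shared 1 label with Coro7, and the reads of these genes cannot be told apart. That locus was at 100.1 and 40.9 FPKM in Old and at 40.6 and 104 in Young, with log2 ratios of -0.06 and 0.01.

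The subunits of the matrix processing peptidase, which cuts off targeting sequences, lay on opposite sides of 0. Pmpca was at 79.2 and 34.9 FPKM in Old and at 39.4 and 89.2 in Young, and was lower in both pairs with a log2 ratio of -0.17. Its locus also overlaps Inpp5e. Pmpcb, the catalytic subunit, was at 70.4 and 36.8 in Old and at 35.6 and 66.8 in Young, with log2 ratios of 0.08 and 0.05. Neither passed the scaled test or that after cyclic loess normalization (adjusted p = 0.383 for Pmpca and adjusted p = 0.312 for Pmpcb by limma). Both passed limma with the like-scaled pairs as a block (adjusted p = 0.0104 and adjusted p = 0.0196). The block was chosen after the values were seen and called 33.3% of all genes lower and 32.3% higher. The ratio of Pmpca to Pmpcb was 1.12 and 0.950 in Old and 1.11 and 1.33 in Young, so the ages overlapped. Within each like-scaled pair this ratio was lower in Old (1.12 against 1.33, and 0.950 against 1.11).

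The 3 folding chaperones of the matrix were higher in Old in both pairs, as were 45.5% of all genes. The differences ran from near 0 for Hspe1 to 1.31-fold for the locus shared by Trap1 and Dnase1. Hspd1 (HSP60) and Hspe1 (HSP10) form the barrel and the lid of the chaperonin. Hspd1 was at 119 and 61.2 FPKM in Old and at 57.5 and 109 in Young, with log2 ratios of 0.12 and 0.09. Hspe1 was at 112 and 58.2 in Old and at 58.1 and 111 in Young, with log2 ratios of 0.01 and 0.00. The Hspe1 locus also overlaps the RefSeq span of Hspd1. The FPKM values of Hspd1 and Hspe1 were therefore nearly equal in every sample, with no measure of the proteins. The ratio of Hspd1 to Hspe1 was 1.06 and 1.05 in Old and 0.989 and 0.984 in Young. The ages did not overlap in this ratio, but the gap was small (exact two-sided permutation p = 0.333), and neither gene passed the scaled test or that after cyclic loess normalization (adjusted p = 0.134 for Hspd1 and adjusted p = 0.705 for Hspe1). With the like-scaled pairs as a block in limma, Hspd1 passed (adjusted p = 0.0114) and Hspe1 did not (adjusted p = 0.134). This block, chosen after the values were seen, called 32.3% of all genes higher and 33.3% lower.

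Trap1, the HSP90 of mitochondria, shared 1 label with Dnase1, so its value may include reads of that gene. The locus was at 108 and 54.2 FPKM in Old and at 42.2 and 82.3 in Young. Scaled, it was at 71.3 and 82.8 in Old and at 63.0 and 53.8 in Young. For the Trap1 locus the log2 fold change was 0.39 ± 0.16 (SE, n = 2 per age; adjusted p = 0.247 by limma), and 0.39 ± 0.03 after cyclic loess normalization (adjusted p = 0.0104).

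Hspd1 and Hspe1 lie head to head on chromosome 1, with 215 bases between the starts taken (chr1:55087933-55088147, written on the strand of Hspe1). These bases hold parts of a heat shock element and ETS type letters that run into each other, from 89 to 71 bases before the Hspe1 start. The RefSeq span of Hspd1 reaches to base 55088243, past the Hspe1 start. The Trap1 window (chr16:4077811-4078060, minus strand) holds the CRE letters from 47 to 40 bases before the start, the single match to TGACGTCA among the members.
Hspd1-Hspe1: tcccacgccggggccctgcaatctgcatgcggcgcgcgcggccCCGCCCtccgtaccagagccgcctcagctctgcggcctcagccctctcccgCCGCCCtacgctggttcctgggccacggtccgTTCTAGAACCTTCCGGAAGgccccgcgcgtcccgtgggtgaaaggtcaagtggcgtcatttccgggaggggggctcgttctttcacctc
Trap1: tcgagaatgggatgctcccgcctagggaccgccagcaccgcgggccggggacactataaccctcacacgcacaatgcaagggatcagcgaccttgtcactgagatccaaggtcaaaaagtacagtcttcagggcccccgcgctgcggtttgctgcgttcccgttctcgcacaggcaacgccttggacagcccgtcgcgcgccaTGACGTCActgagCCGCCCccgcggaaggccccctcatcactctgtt

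Over the windows of 300 bases, from 250 before to 50 after the start, CCGGAAG was found in 11 of 25 members (44%), among them Tomm22, Tomm34, Timm23, Pmpca, Pmpcb, Hspd1 and Hspe1, and in 8.86% of all 32851 RefSeq windows. GGGCGG was found in 15 members (60%) against 35.7%, and parts of a heat shock element in 7 (28%) against 15.1%. TGCGCATGC was found in Timm13 alone among the members (1.52% of all windows), AAGATGGCG in Timm50 alone, just after its start (1.40%), and TGACGTCA in Trap1 alone (1.79%). TCAAGGTCA was found in no member and in 0.423% of all windows. Member windows had a median GC content of 59.7%, against 52.7% over all windows. Members with CCGGAAG were found among those with higher, lower and near 0 log2 ratios. Overlapping matches share bases, a match is no proof of a bound factor, and Hspd1 and Hspe1 share the same stretch.

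**Figure D4:**
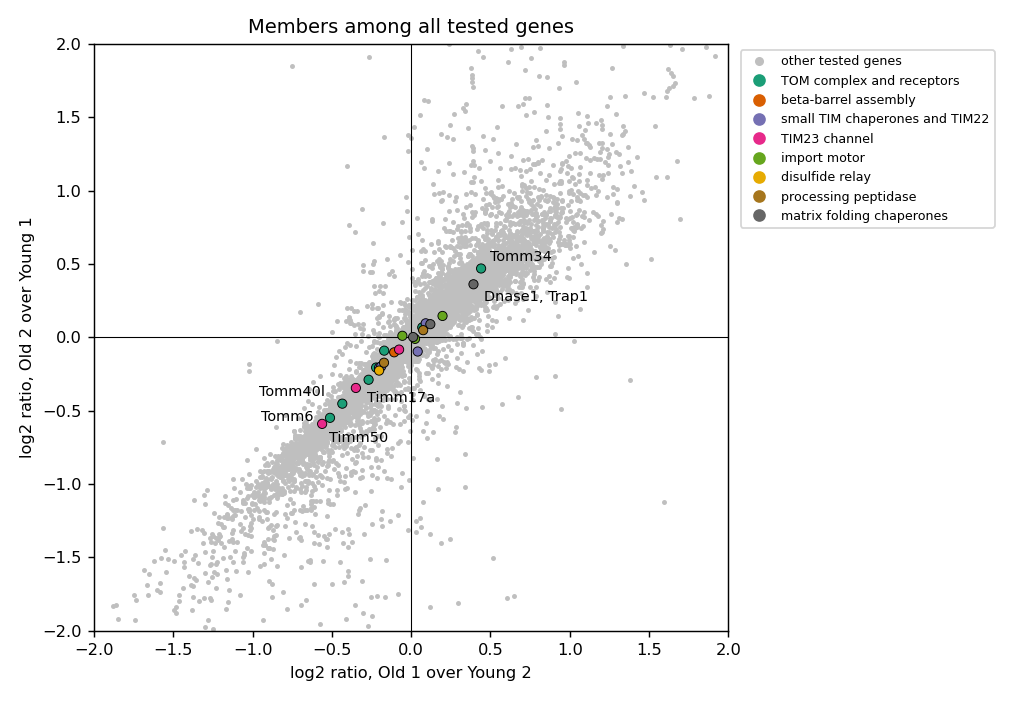
log2 ratio of old over young in the pair of Old 2 and Young 1 against that of Old 1 and Young 2 for the 9293 tested genes above 0 in all samples (gray; 192 genes lie outside the axes) with the 25 members colored by role. The members lie along the diagonal within the cloud of all genes, with Timm50, Tomm6, Tomm40l and Timm17a at the lower left and Tomm34 and the Dnase1 and Trap1 locus at the upper right.

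Other genes of import and of mitochondria were described from lists of known members. Of 20 other import genes, none passed the scaled test and their median log2 fold change was 0.04. After cyclic loess normalization 4 of them were higher and 3 lower, against 11.1% and 13.6% of all genes. Those higher were Gfer, the partner oxidase of Chchd4 (log2 0.58, adjusted p = 0.00864 by limma), Dnajc15, a motor J-protein (0.37), Cox17 (0.39) and Immp1l (0.17), and those lower were Oxa1l, an insertase of the inner membrane (-0.46), Bcs1l (-0.29) and Mtx2, a partner of Samm50 (-0.27). Gfer and Chchd4, which work in 1 relay, thus lay on opposite sides of 0 after cyclic loess normalization. Gfer was at 26.4 and 12.9 FPKM in Old and at 8.44 and 17.7 in Young. These genes were named after their values were seen.

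Of 11 measured proteases and quality control genes, 1 was higher and 3 lower after cyclic loess normalization, against 11.1% and 13.6% of all genes. None was called in the scaled test. Pink1, a kinase kept low by import in healthy mitochondria at the protein level, was at 737 and 305 FPKM in Old and at 218 and 503 in Young (log2 0.61 after cyclic loess normalization). The lower ones were Htra2 (-0.59), Parl (-0.39) and Phb (-0.29). Of 11 regulators of mitochondrial or chaperone genes, 3 were lower after cyclic loess normalization and none higher, against 13.6% and 11.1% of all genes. The 3 were Ppargc1a (-0.69), Esrra (-0.60) and Hsf1 (-0.27). Ppargc1a, a coactivator of genes for mitochondria, was at 9.47 and 4.73 FPKM in Old and at 8.34 and 15.8 in Young. Its relative Ppargc1b went the other way, at 1.38 and 1.33 times the young value in the 2 pairs. Ppargc1b was not called after cyclic loess normalization (log2 0.34, adjusted p = 0.136 by limma). Of the 10 regulators above 0 in all samples, 6 were lower and 3 higher in both pairs, against 48.6% and 45.5% of all genes. Gabpa was listed at 0 in Old 2 and Young 1, as was Dnajc19, and gave no usable comparison.

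Respiratory complex I genes, whose products use the import route, were taken as all genes with a symbol that begins with Nduf. The list is thus not limited to subunits and holds assembly factors. These genes lay lower than the members. Their median log2 fold change was -0.32 over 38 genes, and 31 of the 37 above 0 in all samples were lower in both pairs. Over 70 mitochondrial ribosomal protein genes the median was -0.11, with 46 lower and 19 higher in both pairs. None of these genes passed the scaled test. After cyclic loess normalization 15 complex I genes were lower and 1 higher (Ndufaf2, an assembly factor), and 21 ribosomal protein genes were lower and 6 higher. Over all genes, 48.6% were lower and 45.5% higher in both pairs, and cyclic loess normalization called 13.6% lower and 11.1% higher. The difference between lists was not tested.

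**Figure D5:**
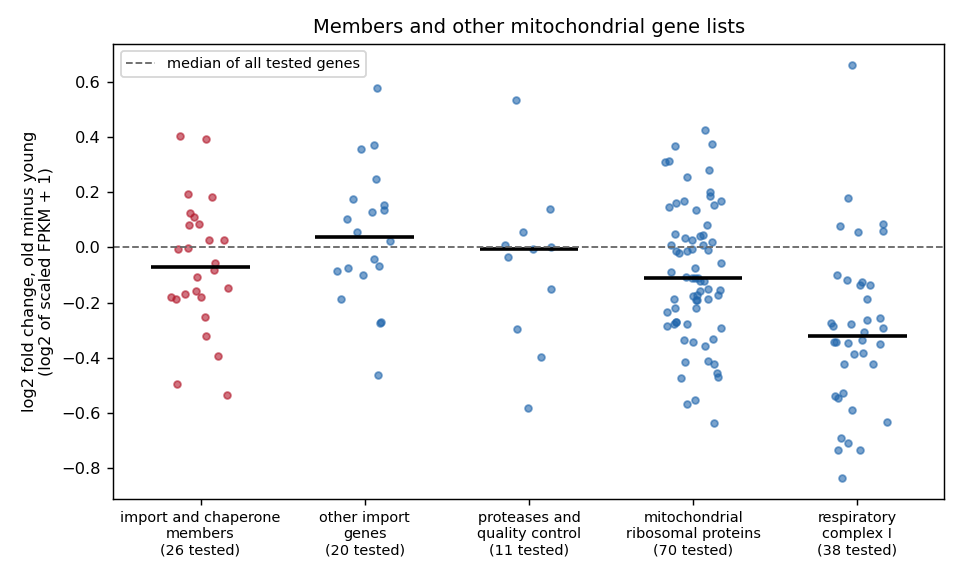
log2 fold change, old minus young, of log2 of scaled FPKM + 1, for each tested gene of 5 mitochondrial lists (points, members in red), with the median of each list as a bar and that of all tested genes as a dashed line. The members spread on both sides of 0 with a median of -0.07, and complex I genes have the lowest median (-0.32).

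Markers of other cell and fiber types were checked beside these values. Of 7 markers of skeletal muscle, Ckm was listed at 0 in all 4 samples, and the summed scaled level of the list was 69690 and 25240 in Old and 26813 and 55074 in Young. Slow fiber markers differed most: 5 of 6 were higher in Old in the scaled test, led by Tnnt1 (log2 4.42), Myh7 (4.26) and Myl2 (3.70), with summed scaled levels of 772 and 642 in Old and 41.7 and 48.9 in Young. Of 5 fibroblast markers, Col1a1 was lower in the scaled test (log2 -1.95), and 3 were lower and 2 higher in both pairs. After cyclic loess normalization 2 of them were lower, Col1a1 (log2 -1.95, adjusted p = 0.00528 by limma) and Col3a1 (log2 -1.40, adjusted p = 0.00660 by limma). The most abundant, Dcn, was higher after cyclic loess normalization (log2 0.31, adjusted p = 0.0253 by limma). The summed scaled level of the fibroblast list was 107 to 127 in Old and 136 to 158 in Young. In the scaled test, none of 4 endothelial, 4 adipocyte and 2 macrophage and leukocyte genes passed. The 2 macrophage and leukocyte genes were lower in both pairs, as were 48.6% of all genes. The log2 ratios were -1.26 and -2.40 for Cd68, which was at 0.105 FPKM in Old 2, and -0.54 and -0.70 for C1qa. Neither was called after cyclic loess normalization (adjusted p = 0.0602 and adjusted p = 0.159 by limma). Pecam1, an endothelial marker, was lower after cyclic loess normalization (log2 -0.26, adjusted p = 0.0464 by limma), and the other endothelial genes were not called. Of the 4 adipocyte markers, 3 (Adipoq, Plin1 and Cidec) were higher in both pairs and Fabp4 was lower, and Adipoq was higher after cyclic loess normalization (log2 0.80, adjusted p = 0.0473 by limma). The endothelial sum was 36.7 to 42.6 in Old and 40.2 to 47.4 in Young, the adipocyte sum, most of which was Fabp4, 216 to 256 and 232 to 274, and the macrophage and leukocyte sum 2.18 to 4.20 and 3.96 to 6.43. The part of fiber type or of other cells in the values of the import genes was not tested, and in whole muscle fewer cells of a type and less RNA per cell cannot be told apart.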

How the data were processed

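TA muscle mRNA-seq of 4 samples was grouped by the age in the labels. After trimming and removal of PCR duplicates, the authors mapped reads to mm10 (TopHat2 2.0.10, RefSeq genes), and the deposited values are FPKM per locus, by Cufflinks. The submitters' processing notes name Cuffdiff 2.1.1. Rows of 1 symbol were summed. Each sample was divided by 1 factor (0.655 to 1.53) to an equal median ratio to the gene mean, over genes above 0 in all samples. Ages were compared on log2(scaled FPKM + 1) with limma 3.58.1 in R 4.3.3 (trend, two-sided, Benjamini-Hochberg), for genes that reached 1 FPKM in 2 or more samples. A fold change on this scale understates that of low genes. FPKM summed to between 226747 and 739302 over the 20605 loci present in every sample. Loci missing from a sample (542) and the incomplete last line of each sample were dropped. Alternatives, cyclic loess normalization among them, are in the closing section. Scripts were tested on simulated data. Figures were made with Python 3.11.15, and promoters are from RefSeq. All members were named, by role. Members and gene lists were chosen with earlier results of these data known.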

Additional observations from a re-analysis of the deposited data

How the results depend on the processing

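Counts of genes higher and lower in Old (61 and 75 as reported) were 18 and 13 with FPKM as deposited, 119 and 188 with quantile normalization, 1135 and 1395 with cyclic loess normalization, 11 and 5 without a filter, 719 and 707 when each sample had to reach 1 FPKM, and 0 and 2 without the trend (limma throughout). A pseudocount of 0.1 gave 123 lower. The replicate block, with the number in the labels as the block, gave 67 and 92, and no member was past the threshold under it. Same-numbered samples deviated in opposite directions (correlation -0.905 over 10266 genes, no p). The crossed pairs (Old 1 with Young 2) as a block, added after seeing the data, gave 3313 higher and 3422 lower, and 7 members higher and 12 lower. Leaving out genes at 0, also added, gave 283 and 412, and 1.25-fold in both crossed pairs, added too, gave 1755 and 2066, with 2 and 4 members.

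Members called were 0 in either direction as reported, with 3 higher and 8 lower under cyclic loess normalization and 1 higher (Tomm34) when every sample had to reach 1 FPKM. Leaving out 1 sample, with the lone sample taken to vary like the others, gave 5 to 1029 genes higher, 7 to 1242 lower, 0 to 1 member higher and 0 to 3 lower. Tomm34 was past the threshold without Old 1 and without Young 2, and Timm50, Tomm40l and Tomm6 without Young 2. The median of the members stayed between -0.09 and -0.04 under every alternative run.

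The log2 fold change turned sign for Timm9 (0.0177) and the Pam16 locus (0.00184) with quantile normalization, and for the Pam16 locus (1.45e-05) with the highest row per symbol. Leaving out 1 sample gave ranges across 0 for Tomm7 (-0.38 to 0.20), Samm50 (-0.194 to 0.0211), Timm9 (-0.0670 to 0.0305), Grpel1 (-0.0294 to 0.0953), Dnajc19 (-3.15 to 3.70), the Pam16 locus (-0.0848 to 0.118), Pmpcb (-0.0491 to 0.222) and Hspe1 (-0.10 to 0.16). These members were not past the threshold in the settings named here, while Samm50 and Pmpcb were past it when the crossed pairs formed a block. The cause was not tested. With depth unknown, no floor can be set for the values listed at 0.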

Other observations

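A pair of import genes carried older symbols in these data and were outside the rule. Under RefSeq names they are Timmdc1 (4930455C21Rik here), an assembly factor of complex I related to the Timm channel genes, and Timm10b (Fxc1 here), a small TIM protein that docks the Timm9 and Timm10 ring on TIM22. Timmdc1 was at 21.0 and 10.6 FPKM in Old and at 12.3 and 23.8 in Young, with log2 ratios of -0.18 and -0.21 in the like-scaled pairs. Timm10b was at 25.1 and 11.7 in Old and at 12.5 and 26.7 in Young, with log2 ratios of -0.09 and -0.10. Both were lower in both pairs, as were 48.6% of all genes, and Timm10b lay closer to 0 than Timm13 and Timm22.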
